A study of Mus musculus with 32 samples.

Results

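The genes described here are 8 genes of the junctions between endothelial cells (ECs), namely Cdh5, Pecam1, Esam, Jam2, F11r, Tjp1, Cldn5, and Ocln, each found by its symbol among the 22850 genes of the table. All 8 were found, each once. RNA sequencing was done on β cells, ECs, and macrophages (MΦs) sorted from dispersed pancreatic islets of mice that carried 3 transgenes, MIP-GFP, RIP-rtTA, and TetO-VEGF-A. In these mice the rat Ins2 promoter drives the rtTA activator in β cells, doxycycline (Dox) in the drinking water then switches on human VEGF-A, and the mouse Ins1 promoter drives GFP. All groups carried all 3 transgenes on a C57BL/6 background and were adult. No Dox mice were never given Dox, 1wk Dox mice received it for 1 week, and 1wk WD mice were taken 1 week after its withdrawal (WD).

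The sort took CD31+ cells for ECs, CD11b+ cells for MΦs, and GFP+ cells that lacked both surface proteins for β cells. CD31 is the product of Pecam1, so the level of Pecam1 across the cell types follows from the sort and is given as a description. No Dox had 4 libraries of each cell type. 1wk Dox had 5 of β cells, 1 of ECs, and 2 of MΦs, and 1wk WD had 3, 5, and 4. Each library pooled the islets of several mice, so the spread between libraries is that between pools. The column names of all 1wk Dox ECs and MΦs and of 1wk WD β cell replicate 3 form a number run apart from all other libraries. What these numbers stand for is not given, and their part in the results was not tested. No Dox mice carry the same transgenes as treated mice, but no group received Dox without the transgenes, so Dox and VEGF-A cannot be told apart. Values are scores, that is, gene expression after the authors' normalization, in whole numbers, of which 1 is the lowest and stands for no signal. The scores of a library summed to between 23465985 and 53441769, and the sequencing depth behind them is unknown. Markers of the sorted type were high in each group. EC markers summed to 315719 or more in ECs, and to at most 57401 in β cells and 4071 in MΦs. Markers of other cells were present too. The summed score of 5 acinar genes ran from 25334 to 9713640 in No Dox β cells and from 191 to 17460 at 1wk Dox. In No Dox β cell replicates 3 and 4 the acinar sums, 9713640 and 7558835, exceeded those of 8 β cell markers, 1655791 and 628170. In No Dox MΦ replicates 2 and 4 they were 9492348 and 1568711, against 299996 and 340021 for 8 MΦ markers. In No Dox EC replicate 2 the acinar sum was 1407467, against 502143 for 8 EC markers.

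Endothelial cells hold together through adherens junctions, built on VE-cadherin and the catenins that tie it to actin, and through tight junctions, built on claudins, occludin, and the JAM proteins and anchored inside the cell by zonula occludens scaffolds. VEGF-A is known as a permeability factor and loosens VE-cadherin contacts in many vessels. Islet capillaries are fenestrated and leaky. Epithelial and endocrine cells build junctions of the same plan from E-cadherin and N-cadherin, other claudins, and the same scaffolds, and leukocytes carry some of these adhesion proteins as they cross vessel walls.

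Of the 8 genes, 5 encode adhesion molecules of the cadherin, PECAM, and JAM families, of which the JAM proteins belong to the tight junction. Cdh5, which encodes VE-cadherin, lies at chr8:106625525-106668402 on the plus strand (mm9), with 12 exons. Pecam1, at chr11:106515531-106611942 on the minus strand, encodes CD31, a homophilic adhesion protein of ECs, platelets, and leukocytes. Esam, at chr9:37335663-37345904 on the plus strand, encodes an endothelial and platelet adhesion molecule of the JAM family. Jam2, at chr16:84774368-84826173 on the plus strand, encodes JAM-B, and F11r, at chr1:173367666-173394734 on the plus strand, encodes JAM-A, which ECs, epithelia, and leukocytes share. The other 3 are a claudin, occludin, and a scaffold of the tight junction. Cldn5, at chr16:18776940-18778353 on the plus strand with 1 exon, encodes the claudin that dominates in brain endothelium. Ocln, at chr13:101266462-101322673 on the minus strand, encodes occludin. Tjp1, at chr7:72441051-72516125 on the minus strand with 29 exons, encodes ZO-1, the scaffold that links these proteins to actin. No exon of the 8 genes overlaps an exon of another gene in GENCODE M1.

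Promoters are shown of the 4 members that the RefSeq table used here holds, which differ in their pattern over the cell types below. F11r was shared by ECs and MΦs, Tjp1 by ECs and β cells, Cldn5 was found in ECs at a low level, and Ocln was highest in β cells. The sequences are the 250 bases before the RefSeq start on GRCm38.p6, a later build than the mm9 of the expression values, 5′ to 3′ on the gene's own strand. They lie at chr1:171437311-171437560 (plus), chr7:65371245-65371494 (minus), chr16:18776597-18776846 (plus), and chr13:100552719-100552968 (minus), in the order printed. Capitals mark CGGAAG or AGGAAG on either strand, 2 forms of the site bound by ETS factors. Other forms of that site were not searched for. RefSeq gives Ocln 2 starts, and the upstream one is shown.
F11r: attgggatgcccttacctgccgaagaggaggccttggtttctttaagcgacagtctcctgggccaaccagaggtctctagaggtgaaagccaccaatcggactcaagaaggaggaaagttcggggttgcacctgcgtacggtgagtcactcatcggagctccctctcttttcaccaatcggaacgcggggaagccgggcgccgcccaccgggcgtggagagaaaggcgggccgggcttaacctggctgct
Tjp1: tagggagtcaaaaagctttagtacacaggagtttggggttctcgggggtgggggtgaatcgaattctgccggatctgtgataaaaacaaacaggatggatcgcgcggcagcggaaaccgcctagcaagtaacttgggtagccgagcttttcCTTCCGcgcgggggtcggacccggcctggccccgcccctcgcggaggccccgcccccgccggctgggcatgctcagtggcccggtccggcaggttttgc
Cldn5: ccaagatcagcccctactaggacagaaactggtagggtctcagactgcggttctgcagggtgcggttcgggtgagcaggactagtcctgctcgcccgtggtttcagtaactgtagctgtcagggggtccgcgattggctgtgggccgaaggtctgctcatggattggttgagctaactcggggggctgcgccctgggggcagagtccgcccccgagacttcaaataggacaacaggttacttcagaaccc
Ocln: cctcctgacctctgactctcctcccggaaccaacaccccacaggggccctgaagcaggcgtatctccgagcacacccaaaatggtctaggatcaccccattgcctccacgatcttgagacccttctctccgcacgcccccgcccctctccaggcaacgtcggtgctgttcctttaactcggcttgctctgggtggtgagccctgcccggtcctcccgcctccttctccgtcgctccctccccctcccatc
Counts were taken over the RefSeq window, which also takes in the first 50 bases after the start. Of these 4 promoters only that of Tjp1 held CGGAAG or AGGAAG, and 46.5% of 32851 promoters hold 1 or both. The GC box, GGGCGG, was present in all 4, 2 times in Tjp1 and 1 time in each of the others, against 35.7% of all promoters. TATAAA was in none of them and in 13.6% of all promoters. The Tjp1 window had 31 CpG, F11r 19, Ocln 17, and Cldn5 12, against a median of 7. These counts describe the letters of the windows only.

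At No Dox the first question was which of the 3 islet cell types expressed each junction gene. Cdh5, Pecam1, Esam, and Jam2 were expressed far above the other cell types in ECs, Tjp1 was shared by ECs and β cells, F11r by ECs and MΦs, and Ocln was highest in β cells. In limma fits over all genes, all 8 members differed between ECs and β cells by 2-fold or more with a Benjamini-Hochberg adjusted p under 0.05, where 39.8% of all genes passed. In ECs 7 were higher, as were 17.3% of all genes, and Ocln was lower, as were 22.5%. Between ECs and MΦs, 7 of the 8 passed, against 35% of all genes, and F11r did not. Between β cells and MΦs, 6 passed, against 44.2% of all genes. Pecam1, for whose product the cells were sorted, is among them in each case. Its β cell against MΦ call (−1.97, adjusted p = 0.0316) was lost in 5 of 17 alternatives, in each of which 1 library was left out, with an adjusted p of up to 0.0856 without β cell replicate 2. Because the libraries are bulk samples, fewer cells that express a gene and less RNA of it per cell cannot be told apart.

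**Figure D1:**
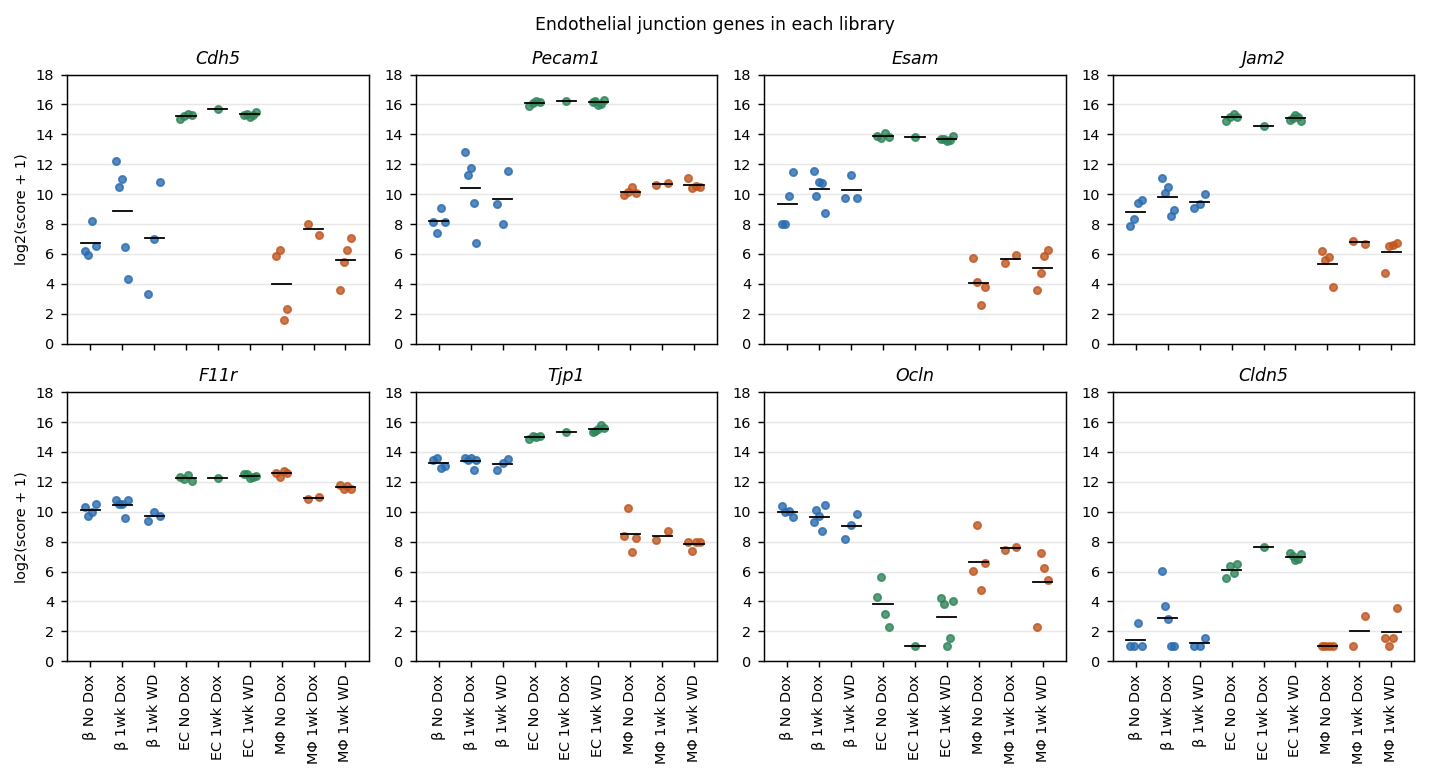
Expression of the 8 junction genes as log2(score + 1) in each of the 32 libraries, by cell type and time point. Points are libraries and bars group means. ECs (green) lie above β cells (blue) and MΦs (orange) for Cdh5, Pecam1, Esam, and Jam2, F11r is lower in MΦs after Dox, and Ocln is highest in β cells.

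Cdh5 scored 32793, 39050, 42281, and 39169 in No Dox ECs. In No Dox β cells it scored 72, 59, 291, and 91, and in No Dox MΦs 57, 77, 2, and 4. The EC libraries did not overlap either of the other groups. The log2 difference from β cells was 8.52 (SE 1.384, adjusted p = 9.22e-06) and from MΦs 11.21 (SE 1.384, adjusted p = 1.192e-07). β cells and MΦs were not called different from each other (2.69, SE 1.384, adjusted p = 0.0988), though they were without MΦ replicate 2 (3.45, adjusted p = 0.0484) and with the replicate number as a block (2.69, adjusted p = 0.046).

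Pecam1, the sorted antigen, scored 61523, 69749, 75751, and 72096 in No Dox ECs. It scored 285, 168, 537, and 283 in β cells and 997, 1150, 1412, and 1070 in MΦs, so all MΦ libraries lay above all β cell libraries. MΦs were not selected on CD31, and there the ratio of Pecam1 to Cdh5 was 14.9 or more, against 1.79 to 1.88 in No Dox ECs.

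Esam scored 15497, 14072, 17176, and 14262 in No Dox ECs, 253, 250, 920, and 2865 in β cells, and 53, 16, 5, and 13 in MΦs. All 3 groups were apart, with log2 differences of 4.57 (SE 0.687, adjusted p = 3.07e-06) between ECs and β cells, 9.83 (SE 0.687, adjusted p = 2.655e-12) between ECs and MΦs, and 5.26 (SE 0.687, adjusted p = 2.794e-07) between β cells and MΦs. Esam thus had a smaller difference between ECs and β cells than Cdh5, Pecam1, and Jam2, and its level varied between β cell libraries. Replicates 3 and 4, with the higher Esam scores, also had the higher sums of 6 pericyte and stroma markers, 124355 and 456603, against 916 and 1107 in replicates 1 and 2. The same replicates had the higher sums of 8 EC markers, 4590 and 8823 against 2069 and 1466, of 8 MΦ markers, 2975 and 5166 against 872 and 486, and of the acinar genes, 9713640 and 7558835 against 579478 and 25334. Their part in the result was not tested.

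Jam2 scored 29824, 36277, 41164, and 37124 in No Dox ECs, 233, 323, 681, and 775 in β cells, and 73, 48, 54, and 13 in MΦs. The groups again did not overlap, with a log2 difference of 6.32 (SE 0.51, adjusted p = 8.512e-11) between ECs and β cells and 9.78 (SE 0.51, adjusted p = 6.888e-15) between ECs and MΦs.

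F11r departed from the other adhesion genes. It scored 5133, 4700, 5539, and 4373 in No Dox ECs, 6179, 5175, 6892, and 6181 in MΦs, and 1296, 826, 993, and 1435 in β cells. EC and MΦ libraries overlapped, and both lay above β cells. ECs exceeded β cells by 2.14 (SE 0.197, adjusted p = 8.554e-10) and β cells against MΦs differed by −2.45 (SE 0.197, adjusted p = 6.022e-11), while ECs against MΦs came to −0.31 (SE 0.197, adjusted p = 0.218).

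Tjp1 scored 29226, 35090, 32595, and 33783 in No Dox ECs, 11409, 12334, 7622, and 8518 in β cells, and 325, 1213, 155, and 306 in MΦs. All EC libraries were above all β cell libraries, and these above all MΦ libraries. The log2 difference was 1.74 (SE 0.354, adjusted p = 0.0001705) between ECs and β cells, the smallest of the 8 in size, and 6.46 (SE 0.354, adjusted p = 1.869e-14) between ECs and MΦs.

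Cldn5 was low throughout. It scored 47, 80, 58, and 90 in No Dox ECs, 1, 1, 5, and 1 in β cells, and 1 in all 4 MΦ libraries. ECs passed the test against both, but no fold is given against groups listed at the lowest score.

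Ocln ran the other way. It scored 1342, 993, 1072, and 798 in No Dox β cells, 66, 558, 26, and 96 in MΦs, and 19, 48, 8, and 4 in ECs. The β cell libraries were above all others, and MΦs and ECs overlapped. The EC against β cell difference was −6.16 (SE 0.921, adjusted p = 2.863e-06). That of ECs against MΦs was −2.78 (SE 0.921, adjusted p = 0.0146), and it lost the call without EC replicate 4 (−2.27, adjusted p = 0.0646) or MΦ replicate 2 (−1.95, adjusted p = 0.0879). The MΦ library at 558, replicate 2, also had the highest acinar sum among MΦs, 9492348 against 18407 to 1568711 in the other 3, and the highest sum of β cell markers, 45997 against 1959 to 6696. Their part in the result was not tested.

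Set per kilobase of exon, Pecam1 was the highest member in No Dox ECs at a mean score of 16200, followed by Cdh5 at 9610, Jam2 at 6150, Esam at 5320, Tjp1 at 4440, F11r at 1850, Cldn5 at 48.6, and Ocln at 4.68. In No Dox β cells the order was Tjp1, F11r, Esam, Ocln, Jam2, Pecam1, Cdh5, and Cldn5, with 1350 per kilobase for Tjp1 and 427 for F11r. The place of Esam (374) above Ocln (249) rests on replicate 4, without which the means were 165 and 269. By medians, Ocln (245) was also above Esam (205). Esam passed F11r without replicate 1 (469 and 407) and, narrowly, without replicate 2, and Pecam1 passed Jam2 without replicate 4 (76.5 and 70.2). In MΦs F11r led at 2290, followed by Pecam1 at 268. The scores are not stated to be divided by gene length, so exon length was applied here.

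**Figure D2:**
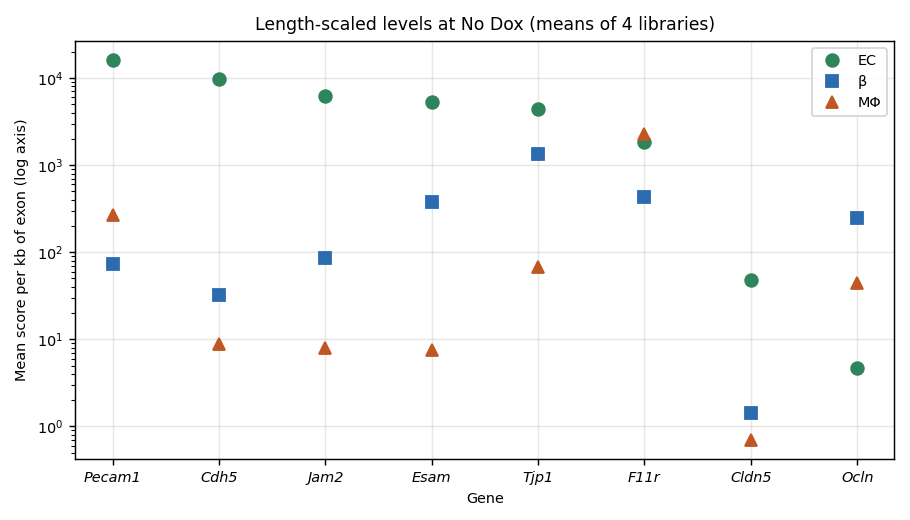
Mean score per kilobase of exon at No Dox for each gene (x axis) in ECs, β cells, and MΦs, each the mean of 4 libraries, on a log axis. In ECs the members run from 16200 for Pecam1 to 4.68 for Ocln, and F11r in MΦs (2290) lies close to F11r in ECs (1850).

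The partners of these genes were also compared between ECs and β cells. Of 15 adherens partners tested at No Dox, 9 were higher in ECs and 2 lower, with a median log2 difference of 1.54. Over all genes 17.3% were higher and 22.5% lower, with a median of −0.06, which also stands beside the lists that follow. Ptprb, which encodes the phosphatase VE-PTP that binds VE-cadherin, was higher by 7.82 (adjusted p = 4.795e-07), and Jup, or plakoglobin, by 4.07 (adjusted p = 1.931e-10). Cdh13, or T-cadherin, was higher by 5.95 and the receptor phosphatase Ptprm by 3.38. The other catenins differed less, by 1.71 for Ctnna1, 1.54 for Ctnnb1, and 1.64 for Ctnnd1. Lower in ECs were Cdh1 (−7.47) and Cdh2 (−6.78), the E-cadherin and N-cadherin of epithelial and endocrine cells.

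Tight junction partners were more often lower in ECs. Of 30 tested, 16 were lower in ECs than in β cells and 8 higher, with a median of −2.06. Lower were Cldn8 (−7.55), Marveld3 (−7.27), a relative of occludin, Patj (−6.71), a polarity scaffold, and Cldn1. No fold is given for Cldn1, at 1 in 3 of the 4 EC libraries and at 2 in the other, against 28 to 824 in β cells. Higher were Cgnl1 (3.88), or paracingulin, Jam3 (2.89), Cldn15 (2.79), and Magi3 (2.31). Among 9 gap junction genes, 3 were higher in ECs and 2 lower, with a median of 0.59, so that the share lower was near the 22.5% of all genes. Higher were Gja1, at 6939 to 8456 in ECs and 1 to 192 in β cells, Gjc1 by 4.26, and Gja5, which encodes a connexin of arterial endothelium, by 3.67. Lower were Gjb1, at 1 to 35 in ECs and 10 to 392 in β cells, and Gjd2. No fold is given for Gja1 and Gjb1, which were at 1 in 2 libraries of the lower group. Gjd2, which encodes the connexin of β cells, was at 1 in all 4 No Dox EC libraries and between 1127 and 3743 in β cells. Gja4 was not called, and its scores were 1064 to 1383 in ECs and 5 to 5556 in β cells. Of 17 border proteins and junction regulators, 12 were higher in ECs and 1 lower, with a median of 2.2. Rasip1 (5.64), Rapgef3 (5.45), and Arhgap29 (4.95) belong to the Rap1 signalling that tightens VE-cadherin contacts, and Mcam (5.19) is an adhesion molecule of the endothelial border. The 1 gene lower was Radil (−2.55), which encodes a Rap1 effector.

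**Figure D3:**
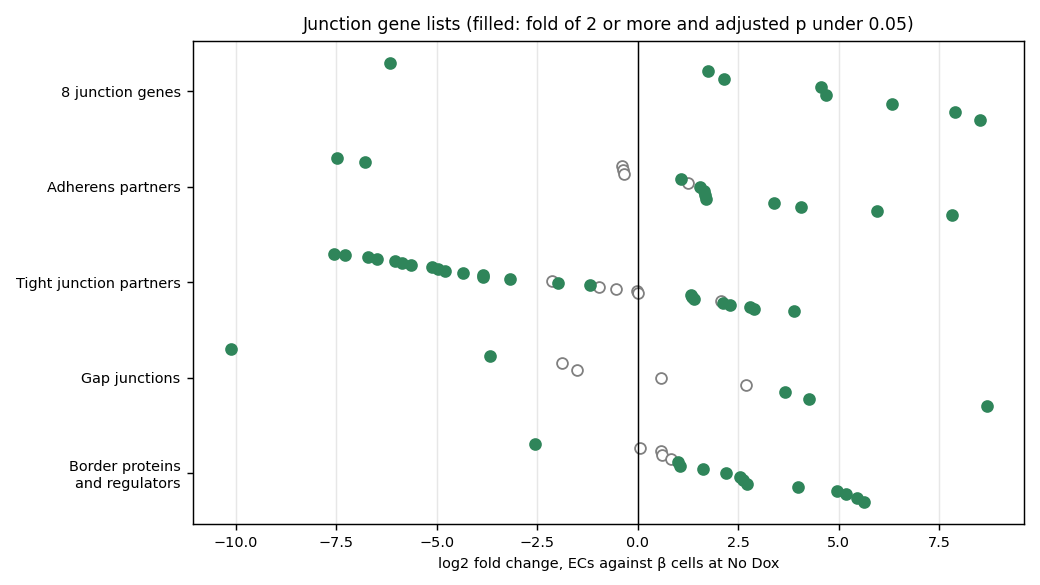
Log2 fold change of ECs against β cells at No Dox for every tested gene of the 8 members and of 4 lists of junction genes, 1 point a gene. Filled points passed a fold change of 2 and an adjusted p under 0.05. Adherens partners and border proteins lie mostly to the right (9 and 12 called higher), and tight junction partners mostly to the left (16 called lower).

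At 1wk WD all 8 members differed between ECs and β cells, against 37.2% of all genes. Between ECs and MΦs 7 of 8 passed, against 38.3%, and between β cells and MΦs 5 of 8, against 43.9%. The call of Ocln between ECs and MΦs (−2.38) was lost in 6 of 18 alternatives, with an adjusted p of up to 0.126 without MΦ replicate 2. F11r then stood higher in ECs than in MΦs by 0.75 (SE 0.187, adjusted p = 0.00134), under the fold change of 2, with no overlap between 4897 to 5969 in ECs and 2878 to 3616 in MΦs.

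The second question was whether the junction genes of ECs differed after the VEGF-A stimulus. Between No Dox and 1wk WD, 0 of the 7 members tested passed both thresholds in limma, where 1.76% of all genes did. At an unadjusted p under 0.05 there were 2, Tjp1 and Cldn5, against 21.9% of all genes. These were also the 2 whose groups did not overlap, against 10.7% of all genes. Ocln, with a mean under 20 in both groups, was not tested.

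Tjp1 scored 41387, 42218, 47547, 55808, and 49762 in 1wk WD ECs, every one above the highest No Dox library at 35090. The mean was 47300 ± 5900 (SD, n = 5) against 32700 ± 2510 (SD, n = 4). The log2 difference of 0.53 (SE 0.11, limma adjusted p = 0.022) is 1.44-fold, under the fold change of 2, and 3.9% of all genes had an adjusted p under 0.05. The adjusted p was above 0.05 without No Dox replicate 1 (0.0732), 2 (0.0525), 3 (0.0673), or 4 (0.0504), with no trend of the spread (0.0729), and with no filter on low scores (0.0506), and it was 0.0191 to 0.045 without any 1 of the 1wk WD libraries. The single 1wk Dox EC library, at 41398, was also above all No Dox ECs.

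Cldn5 scored 147, 130, 106, 114, and 146 in 1wk WD ECs, also all above No Dox, with a mean of 129 ± 18.5 (SD, n = 5) against 68.8 ± 19.7 (SD, n = 4). The log2 difference of 0.93 (SE 0.27) had a limma adjusted p of 0.0781. The single 1wk Dox library was the highest EC library of all, at 202. At these low scores the depth behind a value is unknown.

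The 5 adhesion genes held to a narrow range. Cdh5 scored 39298, 42859, 37360, 40498, and 47090 at 1wk WD (0.11, SE 0.105, adjusted p = 0.55), and Pecam1 scored 74864, 77648, 64455, 65516, and 79350 (0.05, SE 0.106, adjusted p = 0.807). Jam2 scored 31389, 35374, 40860, 35939, and 30487 (−0.05, SE 0.119, adjusted p = 0.833), F11r scored 5969, 5839, 4897, 5036, and 5341 (0.14, SE 0.103, adjusted p = 0.456), and Esam scored 13058, 13301, 12192, 12321, and 15208 (−0.21, SE 0.099, adjusted p = 0.244). All of these overlapped their No Dox libraries, and their coefficients of variation within an EC group lay between 8.65 and 13%. Over the same comparison 7 of 8 EC markers were lower, with a median log2 difference of −0.33 and 0 called. Their sum was 502143 to 539098 at No Dox and 315719 to 414734 at 1wk WD. Of these, Kdr, the VEGF receptor VEGFR2, differed by −0.98 (adjusted p = 0.00348), just under the fold change of 2.

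In the single 1wk Dox EC library, which allows no test of its own, 1 of the 7 members with a mean score of 20 or more lay at least 2-fold from the mean of No Dox ECs, as did 10.7% of 14047 such genes. This was Cldn5, higher by 1.59 on the log2 scale. Ocln, whose mean was under 20, was listed at 1 there and at 4 to 48 in No Dox ECs. Cdh5, at 53986, was above every No Dox library (0.5 on the log2 scale), and Jam2, at 24294, was below every one (−0.56). In all, 5 of these 7 members lay outside the No Dox range, against 62.1% of those genes. Esam at 14141 and F11r at 4910 lay inside it.

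Among the partners in ECs, 0 of 54 genes tested in the 4 lists passed both thresholds in limma between No Dox and 1wk WD, against 1.76% of all genes, and 16 had an unadjusted p under 0.05, as did 21.9% of all genes. Named after their values were seen, 3 had an adjusted p under 0.05 at smaller folds in limma, namely Nectin2 (0.84, adjusted p = 0.0209) and, in the other direction, Jam3 (−0.91, adjusted p = 0.0144) and Jup (−0.66, adjusted p = 0.0299). Ctnnb1 differed by 0.38 (adjusted p = 0.139), Ctnna1 by 0.04, Ctnnd1 by −0.01, and Ptprb by 0.11. Over the same libraries the sum of 6 pericyte and stroma markers was 5531 to 12445 at No Dox and 16479 to 69651 at 1wk WD, with a median log2 difference of 1.88 and Col1a1, Col1a2, and Rgs5 called higher of the 6. The sum of 5 acinar markers was 53001 to 1407467 at No Dox and 633 to 50146 at 1wk WD, with all 5 called lower. Pdgfrb (1.76), Acta2 (0.69), and Cspg4 (0.47) were not called. The part of these cells in the EC values was not tested.

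**Figure D4:**
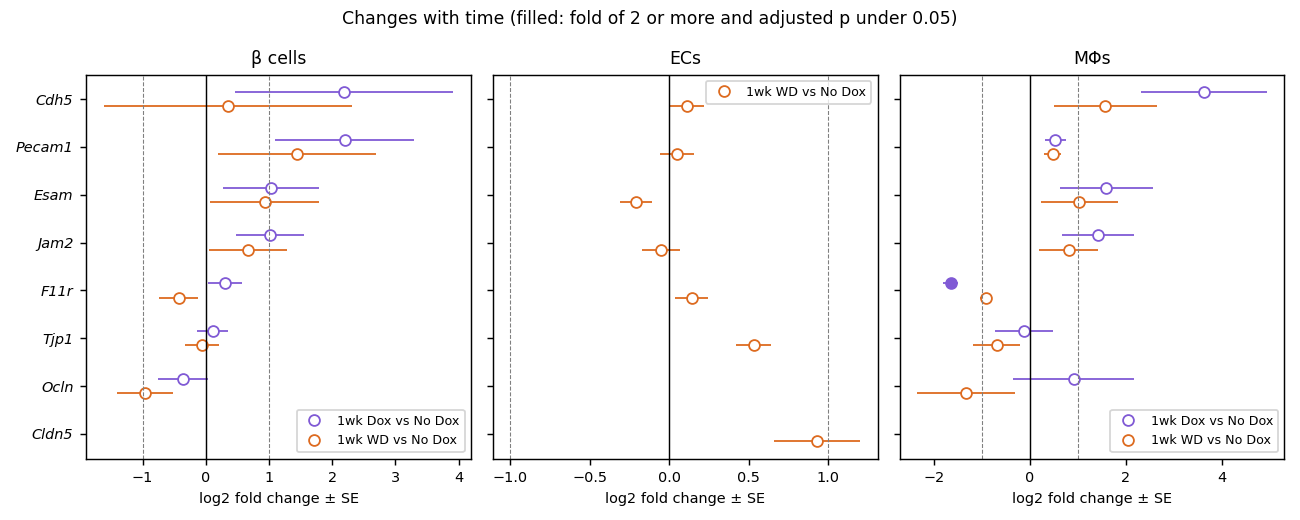
Log2 fold change with its SE for each junction gene against No Dox, in β cells, ECs, and MΦs, with 1wk Dox in purple and 1wk WD in orange. The x axes differ between panels, dashed lines mark a fold change of 2, and the only filled point, F11r in MΦs at 1wk Dox (−1.65), passed both thresholds. Members not tested have no point.

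The third question concerned the MΦs of the same islets. F11r was lower in MΦs at 1wk Dox. The study reports that circulating monocytes are recruited to the islets under VEGF-A, so the sorted MΦs need not be the same population at each time. A change of cells and a change within cells cannot be told apart here. It scored 6179, 5175, 6892, and 6181 at No Dox and 1825 and 2048 at 1wk Dox. The 1wk WD libraries had 3616, 2878, 3428, and 2987. The 3 time points did not overlap, No Dox being highest, 1wk Dox lowest, and 1wk WD between them. Groups as small as these were apart for 30.9% of all genes at 1wk Dox against No Dox, and for 4 of 8 members. At 1wk WD against No Dox they were apart for 9.24% of all genes and for 1 of 8 members, F11r, and at 1wk WD against 1wk Dox for 30.0% and 4 of 8.

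On the log2 scale F11r at 1wk Dox lay at −1.65 from No Dox (SE 0.155, limma adjusted p = 0.000805), going from 6110 ± 706 (SD, n = 4) to 1940 ± 158 (SD, n = 2), a 3.14-fold difference. F11r was the only one of 7 members tested to pass, where 2.26% of all genes passed and 0.653% in the lower direction. The 340 genes behind this share were 0 to 487 when 1 library was left out, 3 with the replicate number as a block, 38 with only the groups compared, and 52 with no trend of the spread. The call was lost without 1wk Dox replicate 4, which leaves a single library at that time (−1.57, adjusted p = 0.0806), and with the replicate number as a block (−1.69, adjusted p = 0.0646). At 1wk WD the difference from No Dox was −0.92 (SE 0.127, adjusted p = 0.00703), a 1.89-fold difference, under the threshold of 2, so 0 members passed, against 0.626% of all genes. At an unadjusted p under 0.05 there were 2, F11r and Pecam1, against 17.3% of all genes. In that comparison 1.23% of all genes had an adjusted p under 0.05 at any fold. Between 1wk WD and 1wk Dox F11r differed by 0.73 (SE 0.155, adjusted p = 0.128), and 0 of 7 members passed, against 0.0866% of all genes. F11r was the only 1 at an unadjusted p under 0.05, against 9.7% of all genes. The 3 MΦ comparisons share libraries and are not independent. Both 1wk Dox MΦ libraries are in a number run apart from the No Dox and 1wk WD ones, so time point and run cannot be told apart.

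Markers of other cells moved with these time points. The acinar sum was 18407 to 9492348 in No Dox MΦs. It was 984 and 2989 at 1wk Dox, while 1wk WD ran from 1428 to 164211. The sum of 5 duct and epithelial markers was 2578 to 3138, 1028 and 1994, and 1247 to 2114, so it was lower in all treated MΦ libraries. The sum of 8 MΦ markers was 255581 to 340021 at No Dox and 349237 or more in the other groups. The part of these cells in the F11r result was not tested.

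The other members of MΦs were low. Cdh5 scored 255 and 154 at 1wk Dox, above all 4 No Dox libraries (3.63, SE 1.309, adjusted p = 0.133), and 11, 43, 75, and 132 at 1wk WD. Pecam1, whose level in MΦs was the second highest of the members per kilobase, scored 1578 and 1734 at 1wk Dox, above all No Dox libraries (0.53, SE 0.215, adjusted p = 0.182), and 2212, 1367, 1480, and 1428 at 1wk WD (0.47, SE 0.176, adjusted p = 0.196). Jam2 scored 115 and 101 at 1wk Dox, above 13 to 73 at No Dox (1.41, SE 0.751, adjusted p = 0.308), and 26 to 105 at 1wk WD. Esam, Tjp1, and Ocln overlapped between 1wk Dox and No Dox, and Cldn5 stayed at 11 or less in every MΦ library. The sum of 8 EC markers was 2852 and 4071 at 1wk Dox against 1424 to 2044 at No Dox, and that of 4 platelet markers was 4852 and 7846 against 2658 to 3602, with 4324 to 4827 at 1wk WD. Of the latter Pf4 was called higher against No Dox at both times, and Itga2b, Gp1ba, and Gp9 were not called. The part of these cells in the values of Cdh5, Pecam1, and Jam2 was not tested.

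Of 65 partners tested in MΦs, 1 gene passed at 1wk Dox, where 2.26% of all genes did. This was the polarity scaffold Patj, which was lower by 1.24 on the log2 scale (SE 0.3, adjusted p = 0.0376), at 647 to 1089 at No Dox and at 264 and 501 at 1wk Dox. Without 1wk Dox replicate 4, 0 of all genes were called, Patj included. Named after their values were seen, 5 more had an adjusted p under 0.05 at a fold under 2, all in the same direction. They were Afdn (−0.68, adjusted p = 0.0223), the afadin that binds JAM-A and nectins, Ctnnb1 (−0.58, adjusted p = 0.0493), Cldn1 (−0.94, adjusted p = 0.0337), Heg1 (−0.98, adjusted p = 0.015), and Tiam1 (−0.79, adjusted p = 0.025). In this comparison 4.58% of all genes had an adjusted p under 0.05 at any fold. At 1wk WD 0 of 65 partners passed in limma, against 0.626% of all genes, and 11 had an unadjusted p under 0.05, as did 17.3% of all genes.

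The F11r difference of MΦs at 1wk Dox was set against that of β cells as an interaction. ECs, with 1 library at that time, were not included, so whether it was particular to MΦs cannot be shown. The 1wk Dox response of MΦs was below that of β cells by −1.96 (SE 0.305, adjusted p = 0.0065), a comparison chosen after the values were seen, and 0.0354% of all genes passed it. It was lost in 4 of 24 alternatives, namely without 1wk Dox MΦ replicate 4 (−1.88, adjusted p = 0.0705), without 1wk Dox MΦ replicate 5 (−2.04, adjusted p = 0.0767), with only the groups compared (adjusted p = 0.556), and with the replicate block (adjusted p = 0.184). At 1wk WD the F11r response of ECs lay above that of MΦs by 1.05 (SE 0.271, adjusted p = 0.0899), and that of Tjp1 by 1.22 (SE 0.488, adjusted p = 0.298). In that comparison 0 members passed in limma, against 0.265% of all genes. F11r and Tjp1 had an unadjusted p under 0.05, as did 12% of all genes. In ECs against β cells at 1wk WD 0 of 8 members passed, against 0.383% of all genes, and 0 had an unadjusted p under 0.05, against 15.1%. Of 71 partners tested there, 1 passed, Ctnnb1, by 1.03 (SE 0.221, adjusted p = 0.0306). It had 16775 to 24803 and 22106 to 31883 in ECs and 5104 to 8179 and 3574 to 4806 in β cells at No Dox and 1wk WD. In the other interactions 0 of 71 partners passed.

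In β cells, 0 of 7 members passed at 1wk Dox against No Dox in limma, where 0.0122% of all genes passed. At an unadjusted p under 0.05 there were 0, against 6.99% of all genes. At 1wk WD 0 passed against No Dox and 0 against 1wk Dox, as did 0 of all 16346 genes. At an unadjusted p under 0.05 there were 0 members against No Dox and 1 against 1wk Dox, F11r, where 8.17% and 6.31% of all genes were. All 8 members overlapped No Dox at 1wk Dox and 1wk WD. The groups were apart for 2.55% of all genes in the first comparison and 6.44% in the second, so 0 of 8 is near those shares. Within a time point the β cell libraries were far apart for several members.

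Cdh5 scored 4829, 1394, 2033, 88, and 19 in the 5 β cell libraries at 1wk Dox. At 1wk WD it scored 9, 130, and 1803. It was above all No Dox libraries in replicates 1 to 3 at 1wk Dox and in replicate 3 at 1wk WD, and below all of them in 1 library of each (2.19, SE 1.728, adjusted p = 0.826 at 1wk Dox). Pecam1 scored 7237, 2464, 3440, 667, and 106 at 1wk Dox, with 662, 256, and 3011 at 1wk WD (2.2, SE 1.097, adjusted p = 0.738 at 1wk Dox). It was above all No Dox libraries in replicates 1 to 4 at 1wk Dox and in replicates 1 and 3 at 1wk WD, so it parted from Cdh5 in 1 library of each. Jam2 scored 2163, 1079, 1429, 375, and 485 at 1wk Dox, with the same 3 libraries highest, and 530, 658, and 1022 at 1wk WD. Esam scored 3009, 954, 1830, 1699, and 426, and then 869, 2431, and 859, so that its order over libraries was another.

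These scores can be set against ECs of the same time point. At 1wk Dox the EC score is that of 1 library, in which Jam2 was below every No Dox EC library. At 1wk Dox, Cdh5 in β cells was 8.94, 2.58, 3.77, 0.163, and 0.0352% of the EC score, and Pecam1 9.46, 3.22, 4.5, 0.872, and 0.139%. The median of 8 EC markers was 8.54, 3.15, 4.11, 0.715, and 0.195% in these libraries, in the same order. Esam stood at 21.3, 6.75, 12.9, 12, and 3.01% of the EC score, and Jam2 at 8.9, 4.44, 5.88, 1.54, and 2.0%, both above the EC marker median in all 5. The highest of the 8 EC markers was at 16.3, 6.25, 7.79, 5.96, and 0.992%. This was below Esam in all 5, but above Jam2 in replicates 1 to 4. The ratio of Esam to Cdh5 was 0.262 to 0.473 in all EC libraries and 0.476 to 96.6 in all β cell libraries. The ratio of Pecam1 to Cdh5 was 1.42 to 1.91 in ECs, and in β cells it was 1.85 to 3.96 at No Dox. After Dox the β cell range was wider, 1.5 to 7.58 in the 1wk Dox libraries, while the 1wk WD libraries ran from 1.67 to 73.6. The pericyte and stroma sum of the 5 libraries was 455120, 126836, 252176, 411073, and 92232. The part of ECs and of pericyte and stroma cells in these scores was not tested.

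**Figure D5:**
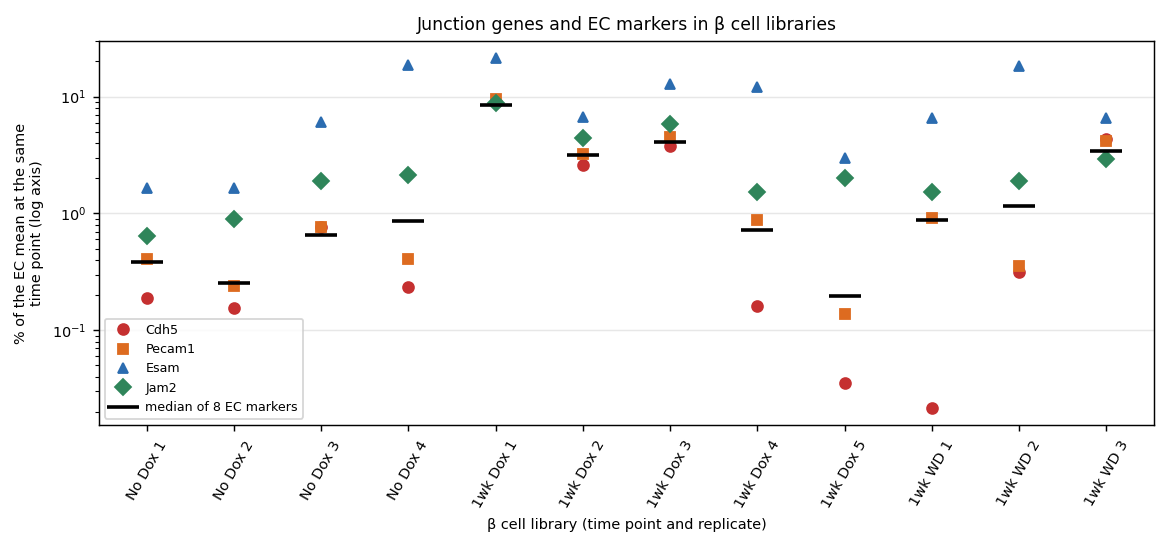
Cdh5, Pecam1, Esam, and Jam2 in each of the 12 β cell libraries as a percentage of the mean EC score at the same time point, on a log axis, with the median of 8 EC markers as a black dash. At 1wk Dox the EC score is that of 1 library. Cdh5 and Pecam1 lie near the dash in 1wk Dox replicates 1 to 3 (Cdh5 at 8.94, 2.58, and 3.77%), while Esam and Jam2 lie above it in every 1wk Dox library.

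Tjp1, F11r, and Ocln had narrower ranges over the β cell libraries. Tjp1 scored 12363, 11169, 12420, 6954, and 11134 at 1wk Dox, with 6972, 9794, and 12060 at 1wk WD (0.11, SE 0.242, adjusted p = 0.946 at 1wk Dox). F11r scored 1733, 1444, 1460, 777, and 1744 at 1wk Dox, whereas 1wk WD had 670, 1018, and 828. Between these times it differed by −0.74 (SE 0.293, limma adjusted p = 0.715). Ocln scored 628, 1097, 831, 423, and 1407 at 1wk Dox, with 295, 551, and 918 at 1wk WD, against 798 to 1342 at No Dox (−0.96, SE 0.444, adjusted p = 0.61 at 1wk WD). All of these overlapped their No Dox libraries. Cldn5 was at 64, 12, and 6 in 1wk Dox replicates 1 to 3 and at 5 or less in the other β cell libraries. In 1wk WD replicate 3, where Cdh5 scored 1803, Cldn5 was at 2.

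Over the 9 group means of log2(score + 1), which are a description only, the genes most like each member were looked up among 16960 others. Cdh5 ran closest to Pcdh17 (Pearson r = 0.9982), Gm9956, and Sox7, and Pecam1 to Pkn3 (0.9972), Cd300lg, and Rnf19a. Esam was closest to Fgd6, Acy3, and Schip1, Jam2 to Sema6a, Itm2a, and Pik3c2b, and Cldn5 to Klhl4 (0.9892), Nos3, and Clca5. Tjp1 ran with Mpzl1 (0.9985), Limch1, and Pcdh1. Ocln ran with Osbpl1a (0.9945) and with the endocrine genes Ppy and Ttr. F11r had the least close match, Omg at 0.9834, followed by Ngdn and Stag2. Among the members themselves, Cdh5 correlated with Jam2 and Cldn5 at 0.97 each, with F11r at 0.45, and with Ocln at −0.74.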

How the data were processed

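RNA of sorted β cells, ECs, and MΦs was measured in 32 libraries, grouped by the sample labels. After amplification the authors sequenced paired-end reads of 50 bp and aligned them to mm9 (TopHat2 2.0 in the submitters' processing notes). Gene expression was normalized in Avadis NGS (TMM). What they deposited is a score per gene and library, in whole numbers from 1, the lowest. The annotation version is not given in the sources used here. The methods and the labels differ on the minimum RNA integrity number and the fragment size. Reads could not be recovered, so the depth and the precision of low scores are unknown. Of 38 sample columns, 6 matched no sample of this series and were not used. Their headers mark them as 1wk Dox ECs and MΦs, which is why those groups are small here, and the study names a second data series for part of its RNA sequencing.

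Scores were tested as log2(score + 1) by limma 3.58.1 (R 4.3.3), with a trend of the spread on mean expression. A gene was tested where its mean score reached 20 in a group fitted. Changes over time were fitted within a cell type, with No Dox and 1wk WD only in ECs. Contrasts between cell types and interactions were fitted over all 32 libraries. A gene was called at 2-fold or more with a Benjamini-Hochberg adjusted p under 0.05 over all genes tested. Fold changes on this scale understate those of low genes. Where the groups share libraries, the comparisons are not independent. Libraries were treated as biological replicates, each a pool of mice.

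The members, the lists of junction genes and cell type markers, and the tests were chosen with earlier results of these data known. The text names all 8 members, and of each list the called genes, at most 4 in a direction, for ECs against β cells at No Dox and for the comparisons over time, plus the catenins, Ptprb, Cdh1, Gja4, Gja5, and Gjd2, and the 3 genes most like each member. Kdr and list genes with an adjusted p under 0.05 at a smaller fold were named after their values were seen. Cd99 and Amy2a of the lists were not found. Exon lengths and overlaps came from GENCODE M1, which holds 22799 of the identifiers and has the same coordinates for 8 of 8 members. Promoters were those of RefSeq on GRCm38.p6, with 4 of 8 members matched. The fit was also run on simulated data, and the outcome is not given here.

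Alternatives tried were a pseudocount of 0.1 or of 20, testing without a filter, a mean of at least 200, scaling by median of ratios, quantile normalization, no trend, only the groups compared, the adjusted p alone, the replicate number as a block, the 1wk Dox EC library added to the fit, and leaving out each replicate. The interaction of MΦs against β cells at 1wk Dox was added after the data were seen. Other steps ran in Python 3.11.15 with numpy 2.4.6, pandas 2.3.3, and scipy 1.17.1, and figures were drawn with matplotlib 3.10.9.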

Additional observations from a re-analysis of the deposited data

Results flagged for a closer look

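Of 48 groups of 4 or 5 libraries examined, 1 a gene, cell type, and time point, 6 held a library far from the others of its group, where chance gives about 1 in 20. In 1wk WD MΦs, replicate 1 stood apart for Pecam1, at 2212 against 1367 to 1480, and for Jam2, at 26 against 91 to 105. Replicate 2 stood apart for Tjp1, at 163 against 254 to 257. In 1wk Dox β cells, replicate 4 was the lowest for F11r, at 777 against 1444 to 1744, and for Tjp1, at 6954 against 11134 to 12420. Cldn5 was at 5 in replicate 3 of No Dox β cells and at 1 in the other 3 libraries, which is near the lowest score. The 1wk Dox response of F11r differed between MΦs and β cells, by −1.96 on the log2 scale (SE 0.305, limma adjusted p = 0.0065). This comparison was chosen after the values were seen, and its call was lost without 1wk Dox MΦ replicate 4 (adjusted p = 0.0705) or 5 (0.0767), with only the groups compared (0.556), and with the replicate block (0.184).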

How the results depend on the processing

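Of 2080 recomputed values, 2006 kept their direction and side of the threshold, or for counts stayed within 1.5 times. A further 39 moved, 13 changed sign, 19 lost and 3 gained significance. The sequencing depth is unknown, so no limit of detection can be set for Cldn5 or for Ocln in ECs, and the 1wk Dox groups of ECs and MΦs are small. Counts of members called moved as follows. With the adjusted p alone, 1 member was called in ECs at 1wk WD (0 with the fold change) and 1 in MΦs at 1wk WD (0 with the fold change). In MΦs at 1wk Dox, where F11r was the 1 member called, the count was 0 with the replicate block and ran from 0 to 1 when each replicate was left out in turn. The MΦ against β cell interaction likewise went from 1 to 0 with only the groups compared and with the replicate block, and ran from 0 to 1 when replicates were left out. The EC against MΦ interaction at 1wk WD went from 0 to 1 with only the groups compared. For the single 1wk Dox EC library, the count at a fold change of 2 over all 8 members, Ocln included, went from 2 to 1 with a pseudocount of 20, and limma with this library added called 0. The cause was not tested. With a minimum mean of 200, low members gave no value in some fits. Same-numbered libraries correlated at −0.466 to 0.371 in their deviations from the group means. Within a time point this was −0.187 to 0.371 over 22 pairs, 8 of which correlated best with their own number, and in 0 of 6 pairs of groups did every correlation exceed 0.1. These values cannot show whether same-numbered libraries came from the same mice, which is not given in the sources used here. The main fits left the libraries unpaired, with the replicate block as an alternative. The acinar sum was highest in replicate 1 of all 3 cell types at 1wk WD (β cells 462265, ECs 50146, MΦs 164211) and in replicate 2 of ECs and MΦs at No Dox, where that of β cells was the lowest of its group (25334). With the replicate block no other count of members moved by over 1.5 times. Some small differences that were not called changed sign. For Cdh5 in β cells at 1wk WD against No Dox, the log2 difference was −0.324 with quantile normalization, −0.2685 with the replicate block, and −1.5248 to 2.2227 when each replicate was left out. For Jam2 in ECs at 1wk WD it was 0.0925 with quantile normalization and −0.1394 to 0.0155 when replicates were left out. Leaving out replicates also gave −0.0053 to 0.2659 for Tjp1 in β cells at 1wk Dox, −0.2426 to 0.1527 for Tjp1 in β cells at 1wk WD, −0.0079 to 0.0922 for Pecam1 in ECs at 1wk WD, −0.5399 to 0.4468 for Tjp1 in MΦs at 1wk Dox, and −0.4092 to 3.3383 for Cdh5 in β cells against MΦs at 1wk WD. Of 55 sign changes over all member values computed, 0 fell on a called value.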
